A study of Homo sapiens with 2 samples.

Results

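The keratins of breast epithelium were followed in 2 RNAseq libraries, 1 of control cells and 1 of FZR1 ko cells. The 10 genes were taken by name, as the rows whose Entrez gene ID maps to KRT5, KRT7, KRT8, KRT10, KRT14, KRT15, KRT17, KRT18, KRT19 or KRT80, out of 23033 genes with a value. All 10 had a value, and 6 of them reached 1 FPKM in at least 1 library. Both libraries were labelled as the breast cancer line T-47D and as treated with cisplatin, a platinum drug that crosslinks DNA, at 2 µg/ml. The control carries the genotype label WT, and the other library the label FZR1 ko, a loss of the APC/C activator FZR1 that the methods describe as made with CRISPR/Cas9 from a lentiviral vector and grown from single cells. The ko cells are therefore a clonal line, and cells without cisplatin were not analysed here. With 1 library per condition there is no replicate, so no value below carries an error, no test was made, and clone, culture and genotype cannot be told apart.

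Keratins are the intermediate filament proteins of epithelial cells. A filament is built from pairs of 1 type I (acidic) and 1 type II (basic) keratin, so each cell type makes members of both types, and a keratin without a partner is usually degraded. KRT8 and KRT18 are the founding pair of simple epithelia and, with KRT7 and KRT19, the keratins of luminal breast cells, while KRT5, KRT14, KRT15 and KRT17 belong to basal and myoepithelial cells. KRT10 is best known from the upper layers of the skin, and KRT80 is a type II keratin of differentiating and simple epithelia that lies near desmosomes. Keratin levels are widely used in pathology to tell luminal from basal carcinomas.

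Because keratins share their rod domain, a read can match more than 1 of them, and a stretch of 60 coding bases shows how close KRT17, the member with the largest difference towards control, comes to 2 type I relatives. It is their most alike ungapped stretch within 1 exon of the GENCODE 44 gene models on hg38, written 5′ to 3′ on the coding strand. It lies in exon 1 of KRT17 on the minus strand (chr17:41624192-41624251), in exon 1 of KRT16 (chr17:41612272-41612331, minus strand) and in exon 1 of KRT14 (chr17:41586424-41586483, minus strand). It codes for the beginning of the helical rod, and capitals mark bases that differ from KRT17, 1 in each relative.

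KRT17: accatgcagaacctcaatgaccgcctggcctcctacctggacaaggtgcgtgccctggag

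KRT16: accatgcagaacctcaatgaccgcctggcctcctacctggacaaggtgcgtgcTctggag

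KRT14: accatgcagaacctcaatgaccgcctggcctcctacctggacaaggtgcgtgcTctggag

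Over their full coding sequences, this stretch included, KRT17 and its relatives are less alike. Over aligned coding bases KRT17 was 85.2% identical to KRT14 and 80.9% identical to KRT16, and KRT80 was 65.6% identical to KRT7 and 66.4% identical to KRT8. Of all 50-base words of the KRT17 transcript, 17.4% also occur in another GENCODE gene and 1.77% in another gene of the deposited table, and of those of the KRT80 transcript 0.418% do, with KRT8 as the gene of the table that holds them. For KRT14 the share was 13.2%, mostly with KRT16, which makes its low values uncertain. KRT8 and KRT18 share 39.2% and 35.3% of their words with other GENCODE genes, which include their many processed pseudogenes, but 1.84% and 1.25% with genes of the table. The read length is not given in the sources used here. RSEM, the quantifier the methods name, divides a read that matches several transcripts among them by an estimate of their abundance.

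FPKM (fragment counts divided by the length of the transcript and by the size of the library) is a value per length, so levels of different genes can be set side by side. It holds no number of reads, and the depth behind a value is unknown. The sums over all genes were close, 502589 FPKM for control against 500488 FPKM for FZR1 ko. The targeted gene, FZR1 (Entrez gene 51343), stood at 12.3 FPKM in control against 10.1 FPKM in FZR1 ko, and mRNA left after small insertions or deletions would still be measured, so this level does not check the labels.

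The label T-47D, a line commonly taken as luminal, was set against marker genes. Of 17 luminal markers with a value, 8 were under 1 FPKM in both libraries, among them ESR1 (0.04 and 0.13 FPKM in control and FZR1 ko), PGR (0.01 FPKM and listed at 0), GATA3 (0.31 and 0.15 FPKM) and CDH1 (0.69 and 0.62 FPKM). The other 9 reached 1 FPKM, and MUC1 (99.4 and 37.5 FPKM), XBP1 (93.4 and 72.6 FPKM), ELF3 (81.8 and 57.5 FPKM) and CLDN4 (43.6 and 21.4 FPKM) were the most abundant. Of 15 basal markers 9 reached 1 FPKM, led by ANXA1 (343 and 293 FPKM) and TRIM29 (112 and 91.5 FPKM), while the basal transcription factor TP63 had 0.07 and 0.08 FPKM. Of 15 mesenchymal markers 13 reached 1 FPKM, led by the filament VIM with 315 and 295 FPKM, while SPARC was at 0.02 FPKM in control and listed at 0 in FZR1 ko and COL1A2 was listed at 0 in both. Defining markers of blood and endothelial cells were low as well, with PTPRC at 0.08 and 0.09 FPKM, PECAM1 at 0.30 and 0.32 FPKM, and CD3E and HBB listed at 0 in both. The hormone receptors and GATA3, which are commonly used to define luminal T-47D cells, were thus near 0, while other luminal markers were abundant and each of the 3 lists held both high and low genes. With these receptors, GATA3 and CDH1 under 1 FPKM and VIM abundant, the identity of the line rests on the labels and was not tested, and the keratin levels are those of the libraries labelled T-47D.

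The simple keratins KRT8, KRT18 and KRT7 made up nearly all keratin mRNA in both libraries. KRT8, the type II keratin of simple epithelia, stood at 829 FPKM in control against 998 FPKM in FZR1 ko, which placed it at rank 65 and 56 among all genes. Its type I partner KRT18 stood at 552 FPKM in control against 740 FPKM in FZR1 ko. KRT7, a type II keratin of glandular ducts, stood at 532 FPKM in control against 657 FPKM in FZR1 ko. All 3 were higher in FZR1 ko. Together they held 93.0% of the summed FPKM of the 10 keratins in control and 94.5% in FZR1 ko. In contrast, KRT19, the smallest keratin and a standard luminal marker, had 0.20 FPKM in control against 0.16 FPKM in FZR1 ko. KRT7 and KRT8 thus stood beside KRT18 as the one abundant type I keratin of simple epithelia.

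The keratins of basal cells split. KRT17, which is also made in activated and wounded epithelium, stood at 103 FPKM in control against 55.8 FPKM in FZR1 ko. KRT5 and KRT14, the pair of basal epithelial cells, were close to nothing in both libraries. KRT5 stood at 0.19 FPKM in control against 0.08 FPKM in FZR1 ko, and KRT14 was at 0.14 FPKM in control but listed at 0 in FZR1 ko. KRT15, a type I keratin of basal and stem-like epithelial cells, stood at 0.55 FPKM in control against 0.94 FPKM in FZR1 ko. At these levels few reads can stand behind a value, and differences of KRT5, KRT14, KRT15 and KRT19 between the libraries were not read. KRT17 was therefore the only basal keratin of the list above 1 FPKM. Type II keratins that can pair with it in basal or activated epithelium were low, KRT5 as given above, KRT6A at 0.04 FPKM and KRT6B at 0.13 FPKM in control, and both of the latter were listed at 0 in FZR1 ko.

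KRT80 and KRT10 lay between. KRT80 stood at 21.4 FPKM in control against 65.0 FPKM in FZR1 ko, at rank 4179 and 1361 among all genes. KRT10 stood at 19.9 FPKM in control against 17.6 FPKM in FZR1 ko. An antisense gene that overlaps KRT10, KRT10-AS1, had 4.25 and 4.19 FPKM. The RefSeq spans of KRT8 and KRT18 overlap each other as well, on opposite strands. Whether the counting used strand is not given in the sources used here.

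**Figure D1:**
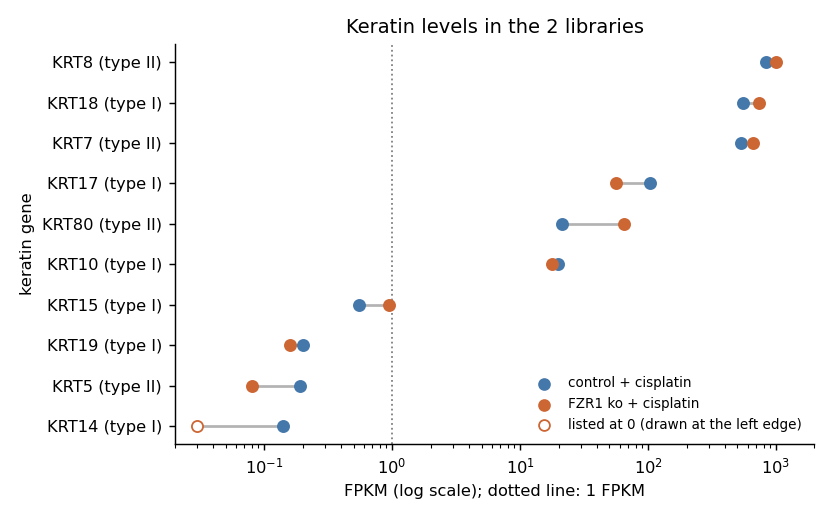
Level of each of the 10 keratins in FPKM (log scale), 1 blue point for the control library and 1 orange point for the FZR1 ko library, joined by a grey line. KRT8, KRT18 and KRT7 lie at 532 FPKM or more in both libraries, KRT17 and KRT80 exchange places, and KRT15, KRT19, KRT5 and KRT14 lie left of the dotted line at 1 FPKM, with KRT14 listed at 0 in FZR1 ko.

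In order of level, control ran KRT8, KRT18, KRT7, KRT17, KRT80, KRT10, KRT15, KRT19, KRT5 and KRT14. FZR1 ko had the same order but for KRT80 and KRT17, which stood in the reverse order. The steps in this order were uneven. In control KRT18 was 1.04 times KRT7 and KRT80 was 1.07 times KRT10, and in FZR1 ko KRT80 was 1.17 times KRT17, steps that a single library cannot separate. The step from KRT7 down to the next member was 5.17 times in control and 10.1 times in FZR1 ko, and the step from KRT10 down to KRT15 was 36.2 and 18.8 times. KRT17 was 4.81 times KRT80 in control and 3.17 times KRT10 in FZR1 ko. In control the step below KRT17 was thus nearly as large as the step below KRT7. By level, both libraries held 3 genes of 532 FPKM or more, 3 genes between 17.6 and 103 FPKM, and 4 genes under 1 FPKM.

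The difference between the libraries was computed per gene by adding 1 to each FPKM and taking the log2 ratio of FZR1 ko over control, with a log2 value of at least 1 or at most -1 counted as 2-fold. Among all 13554 genes of at least 1 FPKM in a library, 13.5% were past this limit, made up of 6.78% higher and 6.72% lower in FZR1 ko, and the median was -0.005. Of the 6 keratins of at least 1 FPKM, 1 was past it, 4 were higher and 2 were lower in FZR1 ko, and their median was 0.29. With 6 genes, a count of 1 is close to what the share over all genes gives.

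KRT80 was the keratin past the limit, at a log2 ratio of 1.56, or 3.04 times its FPKM in control. Of all genes compared, 98.6% had a lower log2 ratio. KRT17 stayed short of the limit at -0.87, its FPKM being 1.84 times higher in control, and 8.92% of all genes had a lower log2 ratio. These 2 keratins had the largest differences in opposite directions, so that the ratio of KRT80 to KRT17 in FPKM was 0.208 in control and 1.17 in FZR1 ko.

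The abundant simple keratins differed little and in the same direction. The log2 ratio was 0.42 for KRT18, 0.30 for KRT7 and 0.27 for KRT8, which corresponds to 1.34, 1.24 and 1.20 times the FPKM in control. Since these genes are among the most abundant, they were also read against the 840 genes with a mean of at least 100 FPKM. The interquartile range of those genes ran from -0.32 to 0.22, and 4.64% of them were past 2-fold. KRT18, KRT7 and KRT8 thus lay above this range, and within that of all genes compared, which ran from -0.42 to 0.43. KRT10 differed least, with a log2 ratio of -0.16.

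**Figure D2:**
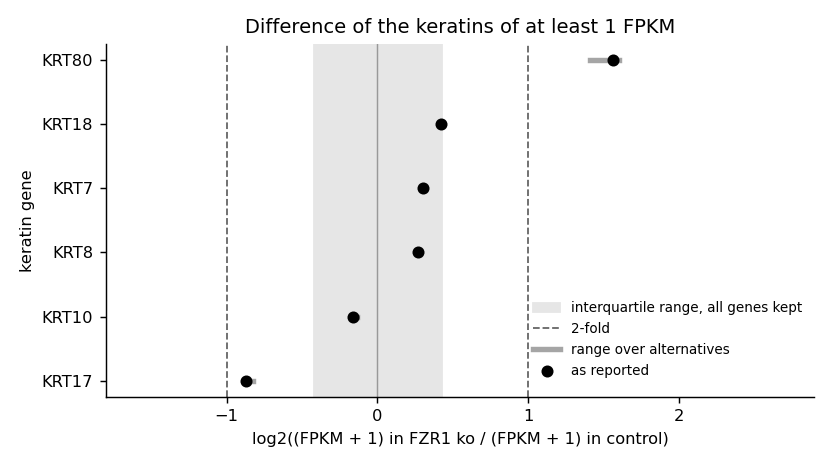
Log2 ratio of FZR1 ko to control (FPKM + 1) for the 6 keratins of at least 1 FPKM, with black points for the values as reported, grey bars for their range over the alternative settings, dashed lines at 2-fold and a grey band for the interquartile range of all 13554 genes. KRT80 at 1.56 is the point beyond a dashed line, KRT17 at -0.87 lies just inside the other, and KRT7, KRT8, KRT10 and KRT18 lie within the band.

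As type I and type II keratins pair in the filament, their sums were compared. The type II members summed to 1383 FPKM for control against 1720 FPKM for FZR1 ko, and the type I members to 676 and 815 FPKM. The ratio of type II to type I was 2.05 in control and 2.11 in FZR1 ko, so the mRNA of type II keratins was in excess in both libraries to a like degree. Within the founding pair, KRT8 had 1.501 times the FPKM of KRT18 in control and 1.35 times in FZR1 ko. KRT17 made up 15.2% of the type I sum in control and 6.85% in FZR1 ko, and KRT80 made up 1.55% and 3.78% of the type II sum. The whole set of 10 held 0.410% of all FPKM in control and 0.506% in FZR1 ko, a log2 ratio of the sums of 0.30, to which KRT8, KRT18 and KRT7 contributed most. FPKM is a measure of mRNA, and protein levels were not measured here.

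Keratin genes lie in clusters, the type II genes with KRT18 on chromosome 12 and the other type I genes on chromosome 17. In the RefSeq order on chromosome 12, 27 keratin genes had a value and 4 reached 1 FPKM. These were the pair at one end, KRT80 and KRT7, and the pair at the other end, KRT8 and KRT18. All 23 keratin genes between KRT7 and KRT8, KRT5 among them, were under 1 FPKM in both libraries, and the highest, KRT86, reached 0.72 FPKM. On chromosome 17, 24 keratin genes had a value and 4 reached 1 FPKM. Besides KRT10 and KRT17, these were KRT34, a hair keratin, at 3.07 FPKM in control against 3.14 FPKM in FZR1 ko, and KRT16, a keratin of activated epidermis, with 1.06 FPKM in both. KRT16 is the next gene to KRT17 and had a log2 ratio of 0.00, against -0.87 for KRT17, but 17% of its 50-base words also occur in other genes of the table, mostly KRT14, and its low level is as uncertain as that of KRT14.

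**Figure D3:**
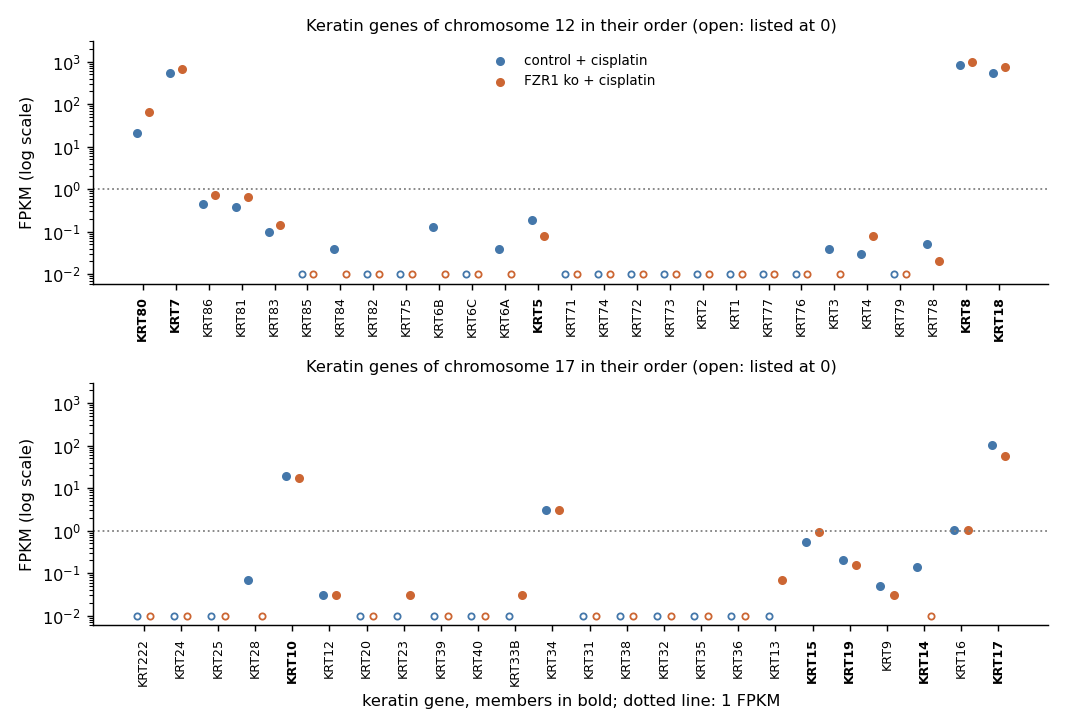
FPKM (log scale) of every keratin gene with a value, in the order of the genes along chromosome 12 (upper panel) and chromosome 17 (lower panel), blue for control and orange for FZR1 ko, with open points at the bottom for genes listed at 0. On chromosome 12 the genes above 1 FPKM are the outer pairs KRT80 and KRT7, and KRT8 and KRT18, and on chromosome 17 they are KRT10, KRT34, KRT16 and KRT17.

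Over all 51 keratin genes with a value, the 10 members held 99.7% of the summed FPKM in control and 99.8% in FZR1 ko. Of the 41 other keratins, 24 were listed at 0 in both libraries and 39 were under 1 FPKM in both, so KRT34 and KRT16 were the ones that could be compared, with a median log2 ratio of 0.01. KRT26, KRT27, KRT33A and KRT37 had no value in either library. The 6 keratin pseudogenes of the table were at or under 0.37 FPKM. Among other genes next to or overlapping a member, EIF4B, a translation factor beside KRT18, stood at 110 FPKM in control against 203 FPKM in FZR1 ko (log2 ratio 0.87), a larger difference than that of KRT8 or KRT18. MIR6510, a microRNA gene within KRT15, was listed at 0 in control and had 3.27 FPKM in FZR1 ko, a short gene whose value can rest on few reads.

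Keratin filaments are anchored at desmosomes and hemidesmosomes, and 25 genes of these junctions and of the linker proteins were compared. Of the 17 genes of at least 1 FPKM, 14 were higher and 3 lower in FZR1 ko, beside 6726 higher and 6812 lower of all 13554 genes. The limit was passed by 3 of the 17, all higher in FZR1 ko, where the share over all genes was 6.78% in that direction and 13.5% in either, and with so few genes this count is not read as a difference from the rest. The median log2 ratio of the 17 genes was 0.46, beside -0.005 over all genes. With the 8 low genes included the median was 0.13. The genes past 2-fold were PKP4, a plakophilin-related protein of junctions, at 2.86 against 9.24 FPKM in FZR1 ko (log2 ratio 1.41), PPL, the cornified envelope and linker protein periplakin, at 5.35 against 14.7 FPKM (1.31), and the desmosomal plakophilin PKP2, at 2.2 against 6.53 FPKM (1.23). The most abundant by the mean of both libraries were CD151, a tetraspanin of hemidesmosomes, with 154 and 168 FPKM, FAM83H, a keratin-binding scaffold protein, with 132 and 130 FPKM, and plakoglobin (JUP) with 76.7 and 108 FPKM. PERP, a desmosome protein and p53 target, was above JUP in control and had the lowest log2 ratio of these genes, at 94.7 FPKM in control against 66.1 FPKM in FZR1 ko (-0.51). Desmoplakin (DSP), which ties keratins to the desmosome, had 32.2 and 36.4 FPKM. Of the desmosomal cadherins DSG2, with 37.6 and 39.2 FPKM, was the one above 1 FPKM, while DSC2 was at 0.01 FPKM in control but listed at 0 in FZR1 ko.

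Among 17 other intermediate filament genes, 11 reached 1 FPKM, of which 6 were higher and 5 lower in FZR1 ko, with a median log2 ratio of 0.12. Past 2-fold were 2 higher and 1 lower, where the share over all genes was 13.5% in either direction. With so few genes these counts are not read as a difference from the rest. VIM, the filament of mesenchymal cells, was the most abundant at 315 and 295 FPKM (log2 ratio -0.09), less than KRT8, KRT18 or KRT7 in either library. The nuclear lamin LMNA had 187 and 238 FPKM, and LMNB2 had 30.3 and 44.3 FPKM. LMNB1 had 22.9 and 48.2 FPKM, a log2 ratio of 1.04. NES, or nestin, was at least 2-fold lower, at 13.4 FPKM in control against 5.65 FPKM in FZR1 ko (-1.11), and DES, the filament of muscle, had 0.24 and 2.36 FPKM (1.44), a low level in both.

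**Figure D4:**
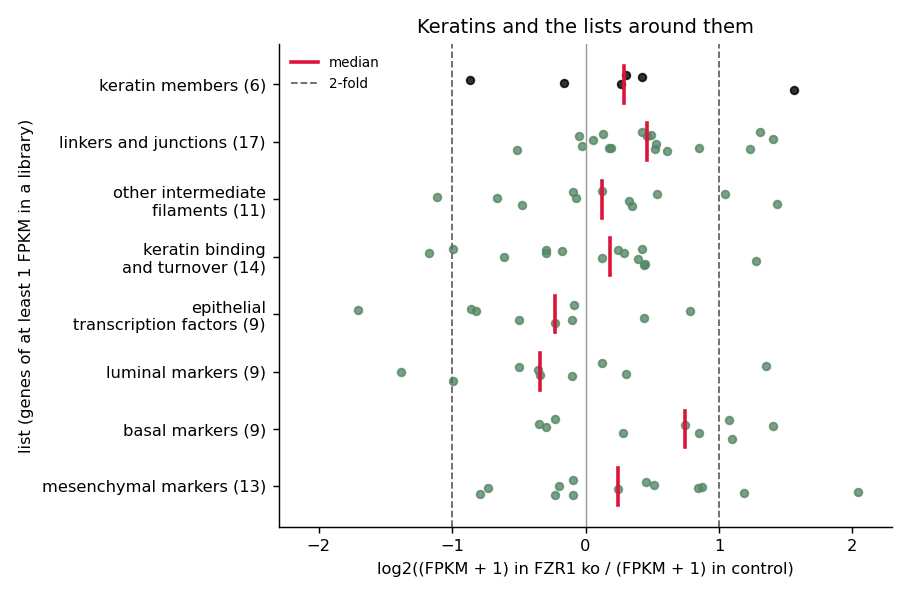
Log2 ratio of FZR1 ko to control (FPKM + 1) of each gene of at least 1 FPKM in a library, by list, with the keratins in black, red lines for list medians and dashed lines at 2-fold. The keratins spread from -0.87 to 1.56 around a median of 0.29, and the linker and junction genes lie mostly right of 0 with a median of 0.46.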

How the data were processed

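RNAseq of 1 control and 1 FZR1 ko library, both with cisplatin, was used. Per the labels and the methods, the authors sequenced total RNA on a BGISEQ-500, aligned reads to the hg38 transcriptome with Bowtie2 and quantified them with RSEM. The methods and the submitters' processing notes differ on the Bowtie2 version (2.2.5 in the notes), and the notes also name Trimmomatic 0.36 and HISAT2 2.1.0. The annotation is not given in the sources used here. The authors deposited FPKM per Entrez gene ID, to 2 decimals. Of 24663 rows, 1630 had no value, and 22925 of 23033 IDs (99.5%) matched a symbol of the RefSeq GRCh38.p14 table.

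With no replicates, no test was made. Log2 ratios used a pseudocount of 1 FPKM, which understates differences of low genes, and genes of at least 1 FPKM in a library. The keratins and the lists were chosen with earlier results of these data known. Named genes were the 10 keratins, FZR1, the members of each list past 2-fold and its 3 most abundant, defining cell type markers, and neighbours of a keratin at 1 FPKM or more. Some genes that this rule names are not reported here. DSP, DSG2, DSC2, PERP, GRHL2, OVOL2, CDH1, CLDN4, SPARC, COL1A2, KRT6A, KRT6B and the highest keratin under 1 FPKM were named after their values were seen, as were KRT26, KRT27, KRT33A and KRT37. Sequences came from GENCODE 44 transcripts on hg38. Coding sequences of MANE Select transcripts were aligned in pairs with Biopython 1.88, and identity is over aligned bases. Alternatives were other pseudocounts, filters, scalings and thresholds, and keratins summed with their pseudogenes. Python 3.11.15, numpy 2.4.6, pandas 2.3.3 and matplotlib 3.10.9 were used.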

Additional observations from a re-analysis of the deposited data

How the results depend on the processing

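The 6 keratins of at least 1 FPKM had 42 log2 ratios under the alternatives, and in none of them did the sign or the side of the 2-fold limit change. Many of these could not change, since a filter does not alter a gene's own ratio. Centring, rescaling and the low pseudogenes moved the ratios little. The largest change, 0.153, was that of KRT80 with a pseudocount of 5 FPKM. KRT80 ranged from 1.41 to 1.60 and KRT17 from -0.88 to -0.83. The count of keratins past the limit was 1 under each alternative except a 4-fold threshold, which KRT80, at 1.56, did not reach, so that the count was 0. Their median of 0.29 was 0.11 with no filter on low values, which adds the 4 keratins under 1 FPKM, and that of the linker and junction genes was 0.13 in place of 0.46. The count over all genes, 1830, was 2818 with a pseudocount of 0.1 FPKM, 453 with one of 5 FPKM and 150 at 4-fold. No paired analysis was possible because there is a single library of each genotype, and no replicate could be left out. The unknown depth limits KRT5, KRT14, KRT15 and KRT19 most.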

Other observations

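Proteins that bind, phosphorylate or cleave keratins were compared as a list of 15 genes. Of the 14 genes of at least 1 FPKM, 8 were higher and 6 lower in FZR1 ko, with a median log2 ratio of 0.19. The most abundant was HSPB1, a small heat shock protein, at 796 FPKM in control against 945 FPKM in FZR1 ko. SFN, the 14-3-3 sigma protein of epithelial cells and a p53 target, had 371 and 164 FPKM (log2 ratio -1.17) and was the one at least 2-fold lower. Of all 13554 genes, 6726 were higher and 6812 lower, and 6.72% were at least 2-fold lower. YWHAZ, another 14-3-3 protein, had 179 and 219 FPKM.

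Of 18 transcription factors of epithelial cells, 9 reached 1 FPKM, of which 2 were higher and 7 lower in FZR1 ko, with a median log2 ratio of -0.23, within the interquartile range of all genes (-0.42 to 0.43). SOX9 was the one past 2-fold, at 5.25 FPKM in control against 0.92 FPKM in FZR1 ko (-1.70). Of all 13554 genes, 6726 were higher and 6812 lower, and 13.5% were past 2-fold. With so few genes the counts of this list are not read as a difference from the rest. ELF3 (81.8 and 57.5 FPKM), KLF5 (77.4 and 72.9 FPKM) and TFAP2A (16.98 and 23.3 FPKM) were the most abundant. GRHL2 and OVOL2, factors that keep epithelial identity, were close to 0, GRHL2 listed at 0 in control and 0.01 FPKM in the ko, and OVOL2 listed at 0 in both.

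Of 12 genes of the cornified envelope, the outer shell of skin cells, 10 had a value and 2 reached 1 FPKM. TGM1, a transglutaminase that crosslinks this shell, stood at 6.08 FPKM in control against 18.8 FPKM in FZR1 ko (1.48), and CNFN had 2.54 and 1.81 FPKM.

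Among the cell type lists, the summed luminal markers were 347 FPKM in control against 225 FPKM in FZR1 ko, the basal markers 592 and 563 FPKM, the mesenchymal markers 450 and 466 FPKM, and the blood and endothelial markers 57.2 and 68.2 FPKM. Of the genes of at least 1 FPKM, 6 of 9 luminal markers were lower in FZR1 ko, with a median of -0.34, and 6 of 9 basal and 7 of 13 mesenchymal markers were higher, with medians of 0.74 and 0.24. Of all 13554 genes, 6726 were higher and 6812 lower, with a median of -0.005 and 13.5% past 2-fold, and the counts of such short lists are not read as a shift between cell types. Luminal MUC1 had 99.4 and 37.5 FPKM (-1.38) while EPCAM had 3.90 and 11.5 FPKM (1.35), and XBP1, at 93.4 and 72.6 FPKM, was also abundant. Basal EGFR had 7.73 and 22.2 FPKM (1.41), MET 12.8 and 28.4 FPKM (1.10) and LAMA3 0.56 and 2.28 FPKM (1.07), beside ANXA1 at 343 and 293 FPKM, TRIM29 at 112 and 91.5 FPKM and LAMB3 at 69.5 and 54.5 FPKM. Mesenchymal CDH2 had 2.97 and 15.3 FPKM (2.04) and AXL 16.02 and 37.8 FPKM (1.19), beside MSN at 49.5 and 68.1 FPKM. Of the last list 4 genes reached 1 FPKM, 1 higher and 3 lower, with a median of -0.69. CD68, at 46.1 and 63.8 FPKM, held most of its sum, followed by LYZ at 5.97 and 3.34 FPKM, and CDH5 had 3.64 and 0.33 FPKM (-1.803). The part of these markers in the keratin values was not tested.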
